A study of Rattus norvegicus with 12 samples.

Results

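The genes described here encode the enzymes that build cholesterol and long-chain fatty acids, 1 sterol carrier and the proteins that set their transcription. They were chosen by name: a fixed list of 31 gene symbols was looked up in a deposited table of 17322 gene models, and 31 of the 31 were found. All 31 also had a mean value of at least 0.5 over the libraries and were among the 12983 models tested. By role they are 6 genes of the mevalonate and isoprenoid steps, 10 genes from squalene to cholesterol, 1 gene of sterol transport, 3 genes of fatty acid synthesis, 6 genes of elongation and desaturation and 5 genes of control.

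Whole hearts of outbred Sprague Dawley rats were studied by RNA sequencing in a factorial design of 4 groups with 3 libraries each. Per the labels, gestational diabetes (GDM) was induced in one set of dams with a diet high in fat and sucrose (HFS), eaten from before mating until weaning, while Lean dams had a low fat diet (LF). The pups were weaned at 3 weeks and assigned at random to LF or HFS, so each group is named by dam and then by the offspring's own diet: Lean-LF and GDM-LF, Lean-HFS and GDM-HFS. Hearts were taken at 15 weeks. GDM here is a dietary model: the exposure of the GDM offspring before weaning includes the HFS diet of the dam. The labels name neither the sex nor the litter of a rat, and p-values reflect only the spread between these libraries, some of which may share a dam.

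Cholesterol is built from acetyl-CoA through mevalonate, isoprenoid units, squalene and lanosterol, and fatty acids are built from the same precursor by carboxylation, chain growth and desaturation. Both routes are known to be switched by the SREBP transcription factors, which Scap escorts to the Golgi for cleavage when membrane sterol is low and which the Insig proteins hold back when it is high. The heart takes up most of its fatty acids and much of its cholesterol from blood. White fat and liver are tissues known for strong fatty acid synthesis.

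Promoter sequences of 3 members are shown here because their values are the ones described in most detail. These members are Hmgcs1, the synthase at the head of the mevalonate steps, and Scd2 and Scd. The latter are genes for stearoyl-CoA desaturases whose values took different courses. Each sequence is the 250 bases before the RefSeq start of the gene in build GRCr8, 5′ to 3′ on the strand of the gene. Capitals mark CCAAT, the box bound by NF-Y, and GGGCGG, the box bound by Sp1, on either strand. The positions are chr2:53382054-53382303 on the plus strand for Hmgcs1, chr1:253118127-253118376 on the plus strand for Scd2 and chr1:253231732-253231981 on the minus strand for Scd.
Hmgcs1: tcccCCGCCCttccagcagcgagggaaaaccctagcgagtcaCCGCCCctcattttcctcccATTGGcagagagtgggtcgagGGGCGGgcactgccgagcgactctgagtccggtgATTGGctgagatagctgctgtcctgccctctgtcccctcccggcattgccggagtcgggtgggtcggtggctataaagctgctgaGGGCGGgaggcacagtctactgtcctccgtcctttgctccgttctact
Scd2: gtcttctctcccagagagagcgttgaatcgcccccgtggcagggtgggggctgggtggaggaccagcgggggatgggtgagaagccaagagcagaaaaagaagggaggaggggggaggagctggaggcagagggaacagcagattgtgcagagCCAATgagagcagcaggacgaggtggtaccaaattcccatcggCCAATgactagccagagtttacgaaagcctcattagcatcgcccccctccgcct
Scd: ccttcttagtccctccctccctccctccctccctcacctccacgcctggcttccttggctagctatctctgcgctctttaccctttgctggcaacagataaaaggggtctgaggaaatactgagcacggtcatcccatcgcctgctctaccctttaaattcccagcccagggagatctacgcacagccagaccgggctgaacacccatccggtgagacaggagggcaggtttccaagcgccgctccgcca

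The Hmgcs1 window holds 2 CCAAT boxes and 4 GGGCGG boxes, that of Scd2 holds 2 CCAAT boxes and no GGGCGG box, and that of Scd holds neither. RefSeq promoters were at hand for 24 of the 31 members. CCAAT was found in 19 of these 24 (79.2%), against 34.0% of all 33469 promoters in the table and 34.5% of those whose gene was tested. GGGCGG was found in 18 of 24 (75.0%), against 30.5% of all promoters and 55.7% of those of tested genes. The E-box CACGTG was found in 4 of 24, those of Elovl5, Insig1, Sc5d and Scap, against 5.59% of all promoters and 7.57% of those of tested genes. The sterol regulatory element-like letters TCACNCCAC were found in 0 of 24 windows, against 0.974% of all promoters and 1.00% of those of tested genes. These shares describe letters in a window and say nothing about binding.

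Values below are scaled reads: the deposited values, each a whole number of reads times a constant of its library, brought to a common level by median-of-ratios factors. They are not divided by transcript length, so levels are compared between libraries and not between genes. Differences are on the scale of log2(scaled value + 0.1). Leaving out models of ribosomal RNA, each library had between 9172734 and 14418970 reads. The 7 cardiomyocyte markers, Myh6 and Tnnt2 among them, were read in all 12 libraries and summed to 110354 to 206303. The lowest of these sums was in Lean-HFS 2, which stood apart also by the highest macrophage sum (1021 against 541 to 687 elsewhere). Differences of Hmgcs1, Idi1 and Cyp51 are therefore given with and without it. Hearts were taken whole, and the summed atrial markers ranged from 454 to 17156, with 835 to 2361 for Lean-LF, 2823 to 5608 for Lean-HFS, 454 to 10431 for GDM-LF and 4490 to 17156 for GDM-HFS. In bulk tissue fewer cells of a type and less RNA per cell cannot be told apart.

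No member passed the test in any of the 7 comparisons made with limma and Benjamini-Hochberg adjustment over the 12983 models at 0.05. Averaged over dams, HFS against LF called 0 of 31 members and 0.0% of all models. Averaged over diets, GDM against Lean called 0 of 31 members and 0.0616% of all models. The interaction of dam and diet, which asks whether the diet difference depends on the dam, called 0 of 31 members and 0.0% of all models. An unadjusted p under 0.05 was reached by 2 members for diet (Scd2 and Cyp51; 7.92% of all models), 2 for dam (Idi1 and Scap; 11.2% of all models) and 1 for the interaction (Hmgcs1; 3.01% of all models), so the members' shares lie near or below the background. edgeR's quasi-likelihood test on the recovered reads called 0 members in all 7 comparisons, with 2, 3 and 1 at an unadjusted p under 0.05 for diet, dam and interaction. DESeq2 called 1 member, Scd2 for diet, and 0 in the other 6 comparisons. It called more models than limma over the whole table: 31 against 0 for diet, 153 against 8 for dam and 49 against 2 for GDM-HFS against Lean-HFS.

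The size of the differences was small for most members. For dam, 29 of 31 members lay within 0.25 of zero on the log2 scale, against 77.4% of all models, and the members' median was 0.018 beside 0.0015 for all models, with 18 higher and 13 lower in GDM. For diet, 24 of 31 lay within 0.25, against 79.5% of all models, with a median of -0.066 beside 0.0083 and 11 members higher and 20 lower in HFS. On the values as deposited, without further scaling, all models had a median of 0.11 for diet and for dam, and the members split into 19 higher and 12 lower for diet and 24 higher and 7 lower for dam. Relative to the median of all models, 20 members were lower for diet and 13 lower for dam on either scale. The median standard error of a member's averaged difference was 0.12.

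**Figure D1:**
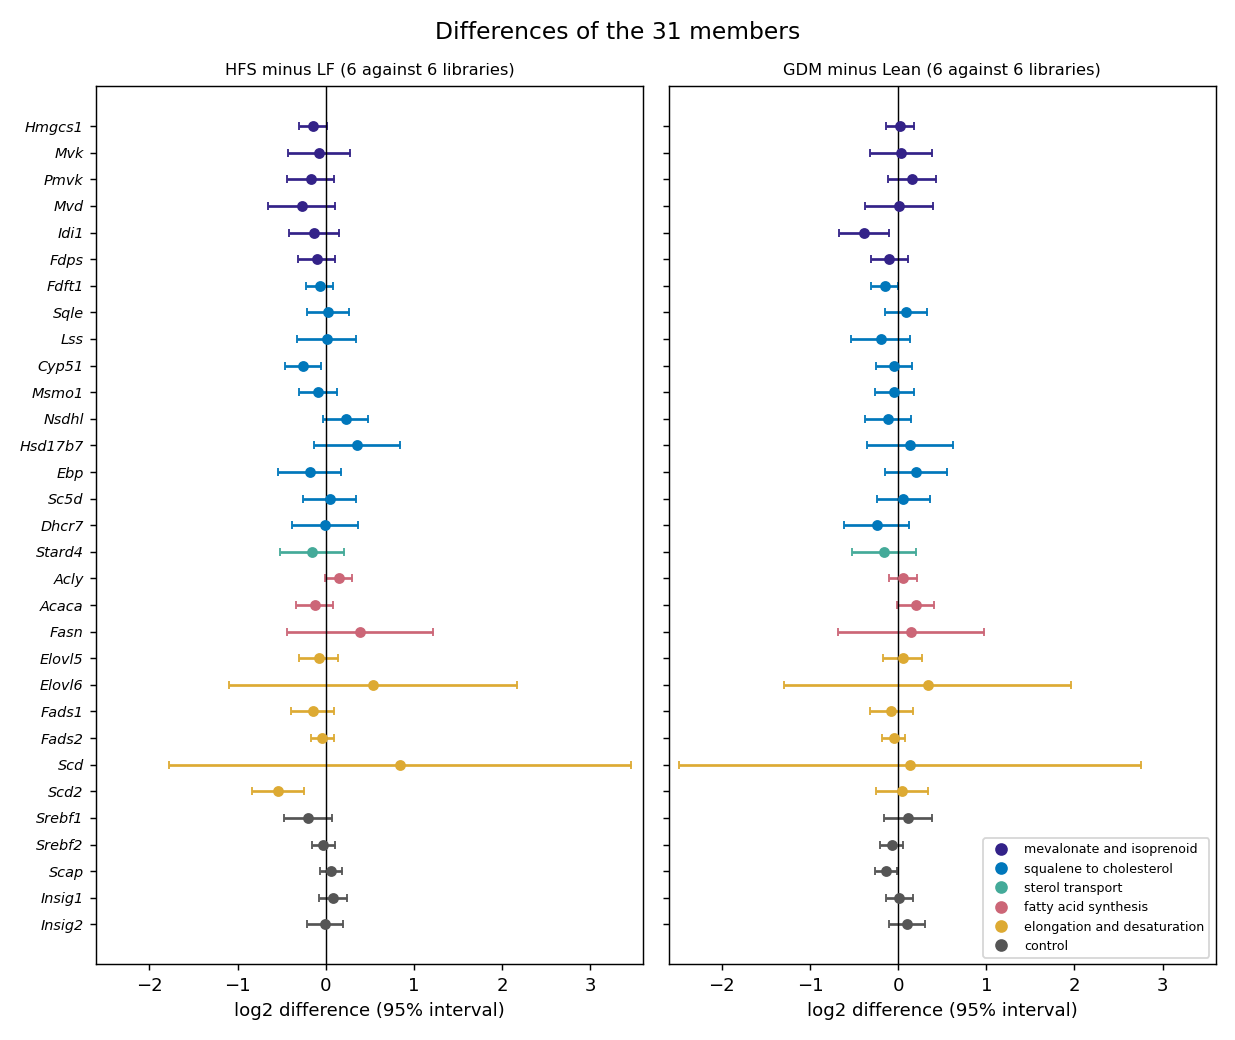
Log2 difference (horizontal axis) of each of the 31 members, coloured by role, for HFS minus LF averaged over dams (left) and GDM minus Lean averaged over diets (right), 6 against 6 libraries; bars are 95% intervals from limma. Most points lie close to zero, Scd2 lies lowest in the left panel at -0.54, and the intervals of Scd, Elovl6 and Fasn are the widest.

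The mevalonate and isoprenoid genes lay slightly lower on HFS, and none of them passed the test. For diet, 6 of 6 had a difference below zero (median -0.14, range -0.27 to -0.073), as did 47.8% of all models, and 0 of 6 had an unadjusted p under 0.05. On the values as deposited 5 of 6 were below zero, and 6 of 6 were below the median of all models. For dam, 4 were higher and 2 lower (median 0.014).

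Hmgcs1 (NM_017268, chromosome 2, 52427579 to 52445082 in the deposited Rnor_6.0 coordinates) makes HMG-CoA, an early intermediate of the mevalonate steps. Its scaled values were 110.1, 113 and 116 in Lean-LF, 95.9, 80.4 and 83.5 in Lean-HFS, 87.9, 103 and 100.3 in GDM-LF, with 97.8, 98.4 and 115 in GDM-HFS. All Lean-HFS libraries lay below all Lean-LF libraries, while the ranges of GDM-HFS and GDM-LF overlapped. In the offspring of Lean dams the diet difference was -0.39 ± 0.10 (log2, SE; limma adjusted p = 0.881), and in the offspring of GDM dams it was 0.09 ± 0.10. The test of the difference between these, the interaction, gave 0.48 ± 0.15 (95% interval 0.17 to 0.80; limma adjusted p = 0.999) and did not pass. All GDM-LF libraries lay below all Lean-LF libraries (-0.22 ± 0.10, limma adjusted p = 0.981) and all GDM-HFS libraries lay above all Lean-HFS libraries (0.26 ± 0.10, limma adjusted p = 0.457). These comparisons share groups and are not independent of each other. Without Lean-HFS 2 the Lean diet difference was -0.34, the interaction 0.43 and the dam difference on HFS 0.21. Leaving out each library in turn gave -0.46 to -0.34, 0.41 to 0.56 and 0.18 to 0.34 for these. The interaction was 0.43 with the summed adipocyte markers as a covariate and 0.48 with the summed atrial markers.

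Idi1, the isomerase that makes the reactive isoprenoid unit, had the lowest p of all members for dam. The libraries gave 16.1, 20 and 19.0 in Lean-LF, 16.4, 22.5 and 20.1 in Lean-HFS, 14.6, 16.8 and 17.8 in GDM-LF, with 11.3, 14.0 and 12.9 in GDM-HFS. The GDM-HFS libraries were below all others, and GDM-LF overlapped both Lean groups. In GDM-HFS the 4 smooth muscle markers, all found and none at 0, summed to 916 to 2448 against 570.0 to 949 in the other groups. The 5 endothelial markers, also all found and none at 0, summed to 1853 to 1997 against 1961 to 2395. Their part in the GDM-HFS differences was not tested. The dam difference was -0.39 ± 0.13 (limma adjusted p = 0.325), and on HFS alone -0.61 ± 0.19 (limma adjusted p = 0.354). Without Lean-HFS 2, the highest library, these were -0.34 and -0.51. The value is uncertain because the Idi1 model lies under that of Wdr37, whose mean value was 9.87 times as high, and such models can share reads.

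Among the other mevalonate genes, Mvd, the decarboxylase, had 14.4, 10.0 and 9.95 in Lean-LF, 6.75, 8.93 and 7.95 in Lean-HFS, 9.96, 10.3 and 8.41 in GDM-LF, with 10.6, 10.7 and 7.30 in GDM-HFS. Lean-HFS lay wholly below Lean-LF (-0.52 ± 0.25, limma adjusted p = 0.881). The kinases Mvk and Pmvk ranged over the 12 libraries from 17.7 to 30.8 and from 24.1 to 37.7, and Fdps, which makes farnesyl diphosphate, from 57.4 to 84.6, with the lowest value in Lean-HFS 2. Their diet differences were -0.07 ± 0.16, -0.17 ± 0.12 and -0.10 ± 0.10.

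The 10 genes from squalene to cholesterol showed no common direction: 5 were higher and 5 lower on HFS (median 0.0028), and 4 higher and 6 lower in GDM (median -0.042). Cyp51 (NM_012941, chromosome 4, 27175564 to 27194016 in Rnor_6.0), which removes a methyl group from lanosterol, was the one with an unadjusted p under 0.05. Its scaled values were 118, 107 and 101 in Lean-LF, 96.1, 77 and 82.8 in Lean-HFS, 105, 110.2 and 83.0 in GDM-LF, with 75.7, 99 and 90.5 in GDM-HFS. The Lean-HFS libraries were all below the Lean-LF libraries, and the GDM groups overlapped. The diet difference was -0.26 ± 0.10 averaged over dams (limma adjusted p = 0.542), -0.35 ± 0.14 in Lean (limma adjusted p = 0.881) and -0.17 ± 0.14 in GDM. Without Lean-HFS 2 the averaged difference was -0.22. The interaction was 0.18 ± 0.19, so the difference between dams was smaller than its error. The averaged difference was -0.24 with the summed adipocyte markers as a covariate and -0.15 with the summed atrial markers. On the values as deposited it was -0.16, where the median of all models was 0.11. These covariates were chosen after the values were seen. Neither sum overlapped between Lean-LF and Lean-HFS: atrial 835 to 2361 against 2823 to 5608, adipocyte 16.9 to 24.1 against 25.1 to 43.1. The adipocyte gap rests on Cfd, a marker that overlaps another model and is uncertain. Cfd made up 13.2 of 16.9 in Lean-LF 3 and 16.8 of 25.1 in Lean-HFS 2. In Lean the part of the atrial sum therefore cannot be told apart from that of diet, for any gene fitted with it. The same holds for the adipocyte sum only as fitted, with Cfd included.

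None of the remaining genes of this stretch passed the test. Fdft1, which makes squalene, ranged from 195 to 272 and was -0.15 ± 0.07 in GDM (limma adjusted p = 0.448). Sqle, the epoxidase that starts the oxidation of squalene, ranged from 25.5 to 34.3, with differences of 0.02 ± 0.11 for diet and 0.09 ± 0.11 for dam. Lss, the cyclase that makes lanosterol, ranged from 16.7 to 29.0, and Msmo1, a methyl sterol oxidase, from 32.5 to 43.1. Nsdhl, a sterol dehydrogenase, had 26.2 to 32.2 in GDM-LF and 33.8 to 38.7 in GDM-HFS without overlap, a difference of 0.27 ± 0.17. Hsd17b7, which acts on the same intermediates, had 4.80 to 6.89 and 7.32 to 8.96 in these groups (0.59 ± 0.32), from 18 to 46 reads a library, and it overlaps a model with 2.36 times its value. Neither passed the test, with limma adjusted p of 0.925 and 0.867. The last enzymes were Ebp (7.53 to 15.1), Sc5d (43.6 to 75.1) and Dhcr7 (6.32 to 12). Dhcr7, the last reductase of the route, was -0.49 ± 0.24 in GDM-HFS against Lean-HFS (limma adjusted p = 0.549). Stard4, a carrier of cholesterol between membranes, ranged from 27.4 to 53.5, with the lowest value in Lean-HFS 3, and differed by -0.16 ± 0.17 for both factors.

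**Figure D2:**
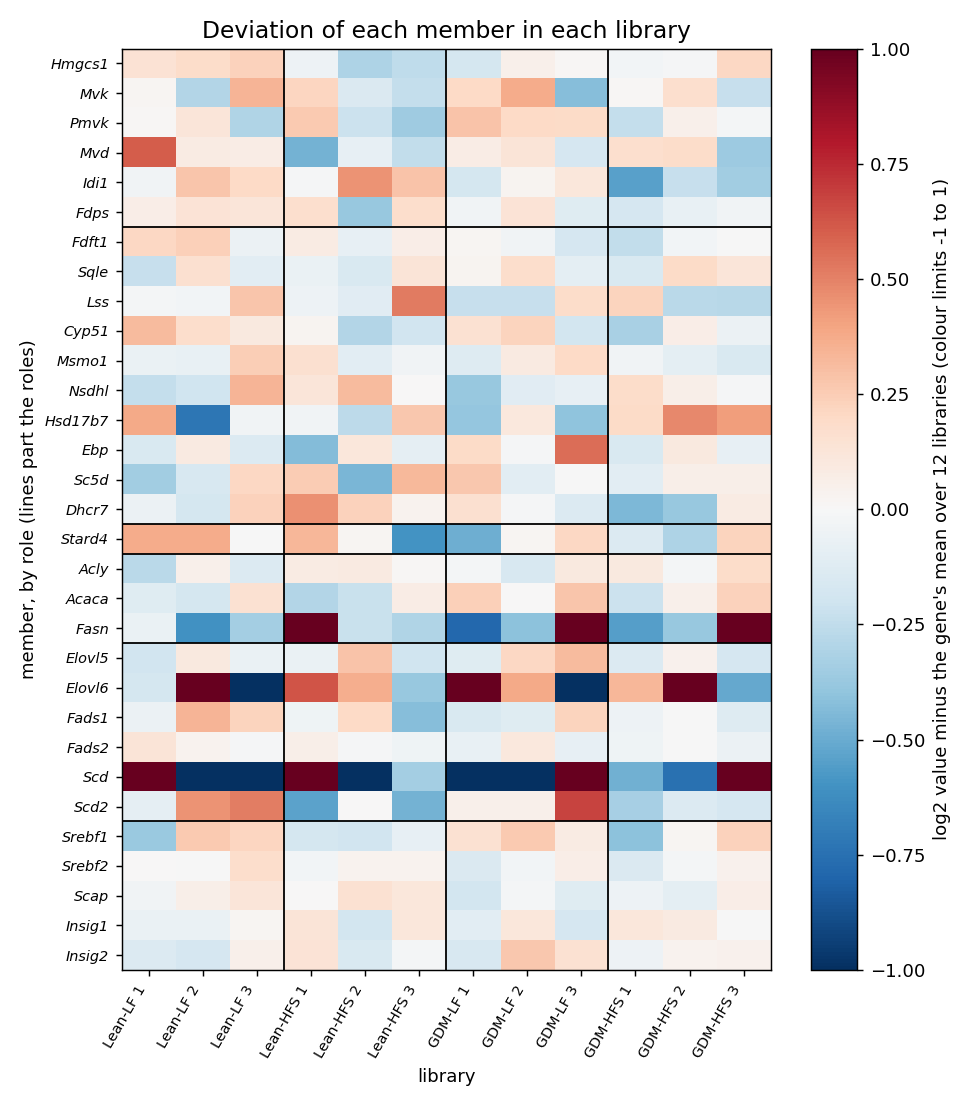
Deviation of each member (rows, by role) from its own mean over 12 libraries (columns, by group), as log2; colours end at -1 and 1. Most sterol rows stay pale in every group, and Fasn and Scd stand out in Lean-HFS 1, GDM-LF 3 and GDM-HFS 3.

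Across libraries the 16 sterol enzymes showed little common shift from their own means, though single genes deviated from -0.72 (Hsd17b7, Lean-LF 2) to 0.61 (Mvd, Lean-LF 1). The median deviation of a library ranged from -0.13 in Lean-HFS 2 and in GDM-HFS 1 to 0.16 in Lean-LF 3, and 12 and 11 of the 16 genes lay below their own mean in the former libraries. Their within-group SDs on the log2 scale were 0.11 to 0.35, with a median of 0.21, the same to this precision as the 0.21 of all models tested.

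Scd2 (NM_031841, chromosome 1, 264059374 to 264072433 in Rnor_6.0) had the lowest p of all members for diet. It encodes a desaturase that puts the double bond into stearic and palmitic acid. Scaled values were 177, 257 and 268 in Lean-LF, 129.9, 189 and 136 in Lean-HFS, 195, 195 and 301 in GDM-LF, with 150.3, 172 and 168 in GDM-HFS. Every GDM-HFS library lay below every GDM-LF library, while Lean-HFS 2 lay above Lean-LF 1. The means were 232 ± 50.0 (SD, n = 6) on LF and 158 ± 22.8 (SD, n = 6) on HFS. The diet difference was -0.54 ± 0.14 (95% interval -0.84 to -0.25), with a limma adjusted p of 0.389, and it did not pass. DESeq2 gave -0.56 with an adjusted p of 0.0383. The difference was -0.62 ± 0.19 in Lean and -0.47 ± 0.19 in GDM, and the interaction of 0.16 ± 0.27 had a 95% interval of -0.43 to 0.75. Leaving out each library in turn gave averaged differences from -0.64 to -0.44. In GDM the difference rested in part on GDM-LF 3, the highest library, and was -0.26 without it. With the summed adipocyte or atrial markers as a covariate the averaged difference was -0.66 and -0.65.

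**Figure D3:**
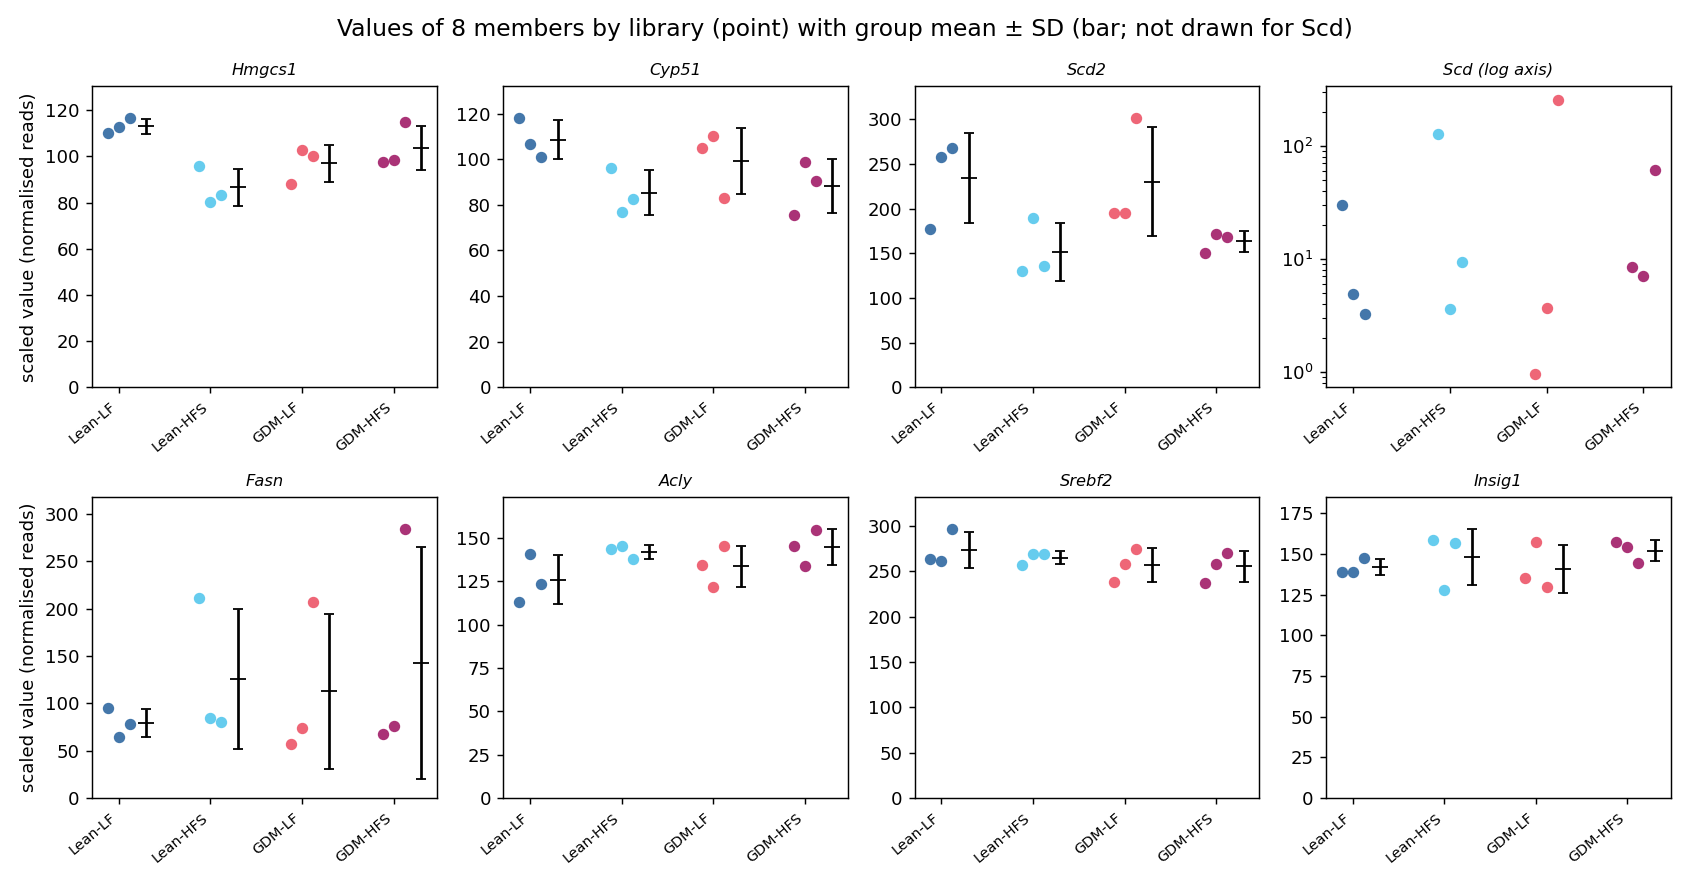
Scaled values of 8 members in each of the 12 libraries (points) by group, with group mean ± SD (bars, n = 3; none for Scd, whose axis is logarithmic). Scd2 is lower in most HFS libraries (129.9 to 189) than in most LF libraries (177 to 301), and the Lean-HFS points of Hmgcs1 lie below those of Lean-LF.

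Scd, a close paralog of Scd2 with a gap of 87695 bp between the 2 models, was the member with the widest spread. In scaled reads it had 29.7, 4.9 and 3.24 in Lean-LF, 127, 3.61 and 9.35 in Lean-HFS, 0.971, 3.66 and 253 in GDM-LF, and 8.48, 7.01 and 61.3 in GDM-HFS, from 4 to 1476 reads. The highest libraries were GDM-LF 3, Lean-HFS 1 and GDM-HFS 3, the groups overlapped throughout, and the highest value was 261 times the lowest. The within-group SD was 2.73 on the log2 scale, and only 4 of the 12983 models had a larger one. The diet difference of 0.84 ± 1.22 (95% interval -1.78 to 3.46) leaves changes in either direction undetectable at this spread. The sources used here do not say how reads that fit both paralogs were assigned. GDM-LF 3 was the highest library for both genes, while Lean-HFS 1, the next for Scd, was the lowest for Scd2.

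Fasn, the fatty acid synthase, had high values in the same libraries. By library it had 94.9, 65.0 and 78.2 in Lean-LF, 211, 85.0 and 80.4 in Lean-HFS, 57.3, 74.5 and 207 in GDM-LF, with 67.5, 76.4 and 284 in GDM-HFS. The 12 libraries fell into 9 from 57.3 to 94.9 and 3 from 207 to 284, and those 3 were Lean-HFS 1, GDM-LF 3 and GDM-HFS 3. The diet difference was 0.39 ± 0.39 and the dam difference 0.15 ± 0.39, so neither exceeded its error. Scd and Fasn are singled out after their values were seen. Thrsp, a lipogenic protein of fat and liver that is no member, was also highest there, at 36.1, 20.4 and 48.4, against 0.463 to 5.15 in the other libraries.

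Markers of fat cells were highest in sum in the same 3 libraries. With Cfd counted, the sum was nearly as high in GDM-HFS 2, where Fasn and Scd were not high. The summed level of 6 adipocyte markers was highest in GDM-HFS 3 (112), followed by GDM-LF 3 (52.8), Lean-HFS 1 (43.1) and GDM-HFS 2 (41.7). In GDM-HFS 2 Fasn was 76.4 and Scd 7.01. Over all libraries it spanned 16.9 to 24.1 (Lean-LF), 25.1 to 43.1 (Lean-HFS), 8.74 to 52.8 (GDM-LF) and 24.4 to 112 (GDM-HFS), so it was also higher on HFS in most libraries. Adipoq, which encodes the fat cell hormone adiponectin, had 3.33, 2.13 and 0.463 in Lean-LF, 8.83, 0.850 and 6.31 in Lean-HFS, 1.21, 0.430 and 17.5 in GDM-LF, with 5.99, 9.74 and 27.7 in GDM-HFS. All 6 of 6 markers were found, Retn was at 0 in 3 libraries, Cidec in 2 and Lep in 1, and Cfd overlaps another model and is uncertain. Ucp1, a marker of brown fat, was at 0 in 7 libraries and highest, at 38.0, in GDM-HFS 3. Cidea, the other brown fat marker listed, took another course. It ranged from 80.7 to 237 and was highest in Lean-LF 2, where Ucp1 was at 0. None of the 6 adipocyte markers passed the test for diet: the lowest p was that of Plin1, a lipid droplet protein (2.12, limma adjusted p = 0.507).

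Each of the 31 members was related to this sum on log2 scales over the 12 libraries, a family of 31 relations with 100000 resamples each. For Scd, Pearson's r was 0.79 (permutation p = 0.00165, Benjamini-Hochberg adjusted p = 0.0256) and Spearman's rho 0.81 (permutation p = 0.00219, adjusted p = 0.0592). Without GDM-LF 1 and GDM-HFS 3, the libraries farthest from the median sum, r was 0.77 and its adjusted permutation p 0.227. With values centred within groups r was 0.88. With Cfd left out of the sum, r was 0.81 (adjusted permutation p = 0.0219) and rho 0.88 (adjusted permutation p = 0.0105). Fasn falls into separate clusters, and its r over all 12 libraries spans the gap between them. It was 0.85 (permutation p = 0.00016, adjusted p = 0.00496), with a rho of 0.78 (permutation p = 0.00382, adjusted p = 0.0592). Without GDM-LF 1 and GDM-HFS 3 the r of Fasn was 0.73 (adjusted permutation p = 0.227). With values centred within groups its r was 0.92. With Cfd left out of the sum, its r was 0.81 (adjusted permutation p = 0.0208) and its rho 0.76 (adjusted permutation p = 0.0891). Within the 9 lower libraries r was 0.59 (exact permutation p = 0.0891) and rho 0.50 (exact permutation p = 0.178). There r was 0.35 without the 2 farthest of them. These 9 were set apart by their Fasn values, which narrows the range, so they cannot decide on a relation. Scd2 had an r of -0.21 (permutation p = 0.503, adjusted p = 0.934). The part of fat cells in the values of Scd and Fasn was not tested.

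**Figure D4:**
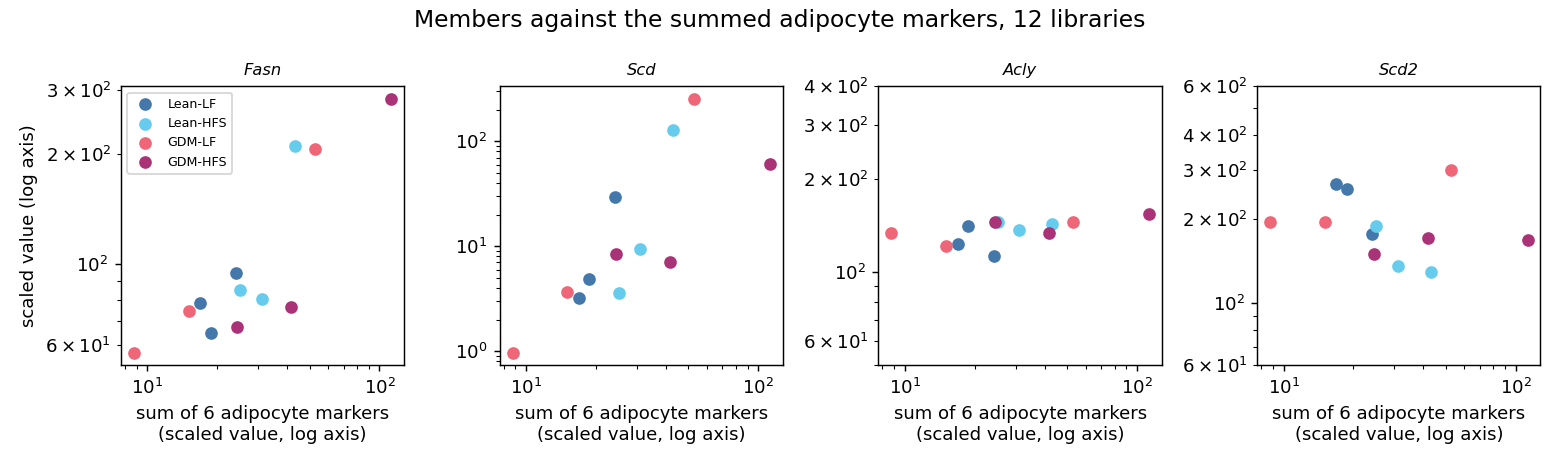
Scaled value of Fasn, Scd, Acly and Scd2 (vertical, log axes) against the summed level of 6 adipocyte markers (horizontal, log axis) in 12 libraries, coloured by group. Fasn (207 to 284) is high in 3 libraries with sums of 43.1 to 112 and not in GDM-HFS 2 (76.4), whose sum is 41.7. Of that sum 16.4 is from Cfd, an uncertain marker. Scd2 shows no such course.

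The other genes of fatty acid synthesis varied far less. Acly, which releases acetyl-CoA from citrate, ranged from 113 to 154, with a diet difference of 0.15 ± 0.07 (limma adjusted p = 0.636). Acaca, the carboxylase that makes malonyl-CoA, ranged from 123 to 184, with 0.20 ± 0.10 for dam (limma adjusted p = 0.461) and -0.13 ± 0.10 for diet. The averaged dam difference was above zero for 3 of 3 genes of this step (0.057 to 0.20), as for 50.4% of all models, and none passed. For Fasn the median library was lower in GDM (75.4) than in Lean (82.7), and its high GDM values were those of GDM-LF 3 and GDM-HFS 3. Among the elongases and desaturases of polyunsaturated chains, Elovl5 ranged from 57.7 to 82.5 and Fads1 from 45.8 to 78.0, and their averaged differences lay between -0.15 and 0.05. Fads2 was the steadiest member, from 2486 to 2875 with a within-group SD of 0.07, but its model spans 245772 bp and covers 5 other models. Fth1, the ferritin heavy chain, is one of them and had 75.7% of its value, so the Fads2 value is uncertain. Elovl6, which extends palmitic acid, had 0 to 9 reads a library and was listed at 0 in Lean-LF 3, which leaves it too shallow for a comparison.

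The 5 control genes had within-group SDs of 0.08 to 0.25 on the log2 scale, the highest that of Srebf1, against medians of 0.20 for the members and 0.21 for all models. Srebf2, the factor known for sterol genes, ranged from 237 to 297, with -0.03 ± 0.06 for diet (95% interval -0.16 to 0.10) and -0.07 ± 0.06 for dam. Srebf1, the factor known for fatty acid genes, ranged from 45.9 to 73.1, with -0.20 ± 0.13 for diet and 0.11 ± 0.13 for dam. It overlaps the model of Rai1, which had 3.11 times its value, and is uncertain. Insig1, itself a known SREBP target, ranged from 128 to 159 and differed by 0.09 ± 0.07 for diet and 0.02 ± 0.07 for dam. Insig2 ranged from 41.6 to 56.2 and differed by -0.01 ± 0.10 and 0.10 ± 0.10. Messenger levels do not show how much SREBP was cleaved.

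Scap, the escort of SREBP, had scaled values of 154, 164 and 171 in Lean-LF, 158, 175 and 170.2 in Lean-HFS, 138, 155 and 145 in GDM-LF, with 152, 147 and 165 in GDM-HFS. The GDM libraries lay mostly below the Lean ones, with overlap in both diets. The dam difference was -0.14 ± 0.06 (limma adjusted p = 0.415), and leaving out each library in turn gave -0.16 to -0.12. On the values as deposited it was -0.03, where the median of all models was 0.11.

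Single pairs of groups were also compared. GDM-LF against Lean-LF had 0 members called (0.0308% of all models), 0 with an unadjusted p under 0.05 (5.0% of all models), and 2 without overlap between groups, Hmgcs1 and Pmvk (11.0% of all models). GDM-HFS against Lean-HFS had 0 called (0.0154%), 2 with an unadjusted p under 0.05, Hmgcs1 and Idi1 (9.64%), and the same 2 without overlap (13.8%). Lean-HFS against Lean-LF had 0 called (0.0%), 3 with an unadjusted p under 0.05, Hmgcs1, Cyp51 and Scd2 (5.21%), and 3 without overlap, Hmgcs1, Mvd and Cyp51 (10.0%). GDM-HFS against GDM-LF had 0 called (0.0%), 1 with an unadjusted p under 0.05, Scd2 (5.57%), and 5 without overlap, Pmvk, Idi1, Nsdhl, Hsd17b7 and Scd2 (11.4%). No member was without overlap in the comparisons of 6 against 6 libraries, where 0.347% of all models were for diet and 0.793% for dam. The 2 to 5 of 31 members without overlap in a pair thus stand beside 10.0 to 13.8% of all models.

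In lists of other genes of these pathways limma called 0 in any comparison. Of 11 further sterol and isoprenoid genes, Cyb5r3, a reductase that feeds electrons to desaturases, was -0.22 ± 0.08 in GDM (limma adjusted p = 0.359) and Dhdds, of dolichol synthesis, was -0.18 ± 0.07 on HFS. Of 16 further fatty acid genes tested, Acss2, which activates acetate, was 0.23 ± 0.10 in GDM, Hacd3 was 0.18 ± 0.08 and Mid1ip1 was -0.27 ± 0.12. In the same list Acsl3, an acyl-CoA synthetase, was -0.22 ± 0.10 on HFS. Elovl1, an elongase of very long chains, had an interaction of -0.57 ± 0.19 (limma adjusted p = 0.999), with 71.5 to 82.9 in Lean-HFS against 49.9 to 61.4 in GDM-HFS. Of 14 SREBP processing and regulator genes, Nr1h3, which encodes the oxysterol receptor LXR alpha, was 0.37 ± 0.13 in GDM (limma adjusted p = 0.321), Mlx was -0.18 ± 0.07 in GDM and Erlin2 -0.17 ± 0.07 on HFS. The genes named from these lists had an unadjusted p under 0.05 in a factorial comparison. For dam they were 1 of 11, 3 of 16 and 2 of 14 in the order above, beside 11.2% of all models. For diet there was 1 in each list, beside 7.92%. The interaction had 1 of 16 fatty acid genes and 0 in the other lists, beside 3.01%. Of 14 genes of sterol uptake, storage and export, 0 reached such a p for dam, 1 for diet and 0 for the interaction.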

How the data were processed

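The members and gene lists were chosen with earlier results of these data known. Per the labels' protocols, rRNA-depleted total RNA was made into directional libraries, sequenced in paired 100 bp reads, and aligned with STAR 2.5.1b to Rnor_6.0. Further tools in the submitters' processing notes, given with no role, are HOMER 4.9, edgeR, FastQC and Trim Galore. The authors deposited 1 normalised read signal per gene model and library. Its label calls it FPKM, and the tests were planned on normalised values. The deposited Length is the genomic span for 98.9% of models, the values are not divided by it, and the sources used here do not say how reads were assigned, or whether by strand. Within a library the deposited signal is a whole multiple of 1 step (0.184 to 0.262). Division by that step returned whole numbers to a tolerance of 0.1 in 100% of values.

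Values were divided by median-of-ratios factors (0.886 to 1.15). limma 3.58.1 in R 4.3.3, with a variance trend, was run on log2(scaled value + 0.1) for models with a mean of at least 0.5, over 4 groups of 3 libraries, two-sided, with Benjamini-Hochberg adjustment and a threshold of 0.05, and was tested on simulated data. edgeR 4.0.16 and DESeq2 1.42.0 were run on recovered reads. Intervals are 95%. Values are given in every library for members with an unadjusted p under 0.05 in a factorial comparison or among the 2 lowest p of any comparison; others were named for their role or after their values were seen. Promoters are from RefSeq (GRCr8), searched on both strands. No coordinates were converted. Alternatives were other scalings, filters, pseudocounts, tools, covariates, a replicate block and leaving out each library. Pdss1, Hacd2 and Lrp8 were not analysed here, and some other genes of the lists are not reported here.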

Additional observations from a re-analysis of the deposited data

How the results depend on the processing

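With 3 libraries a group, whole hearts and no litter in the labels, small differences were not detectable. The count of members called stayed at 0 in all 7 comparisons under other filters, pseudocounts, scalings, robust variance, edgeR and each left-out library, and in the 4 pairs of groups when only those 2 groups were fitted. With DESeq2 it was 1 for diet (Scd2, -0.56). In all, 646 values under alternatives kept their direction and call or moved by less than the spread between replicates, 8 moved further, 1 became stronger and 1 weaker. With the replicate block the members called were 0 in all comparisons. All-model calls were then 10 for dam against 8 without it, and 5, 3 and 1 for GDM-LF against Lean-LF, GDM-HFS against Lean-HFS and GDM-HFS against GDM-LF against 4, 2 and 0. Libraries with the same replicate number shared little of their deviation: r was -0.0985 to 0.115 over 18 pairs, 1 over 0.1. Because the numbers come from the titles, this check cannot show whether libraries are paired otherwise or share a dam.

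On the values as deposited the members' medians were 0.13 for dam, 0.033 for diet, 0.10 for GDM-LF against Lean-LF, 0.13 for GDM-HFS against Lean-HFS, 0.071 for Lean-HFS against Lean-LF and 0.064 for GDM-HFS against GDM-LF, where all models shifted by about 0.11. For GDM-LF against Lean-LF, leaving out each library gave medians from -0.096 to 0.012. The lowest was without GDM-LF replicate 2, and the cause was not tested. The covariates, leaving out overlapped members and the relations to the adipocyte sum were chosen after seeing the data. Of these relations 2 passed by Pearson's r, those of Fasn and Scd, and 0 by Spearman's rho. Without the 2 farthest libraries 0 passed by either, where fewer libraries were used. With values centred within groups 2 passed by either, and with Cfd left out of the sum 2 passed by r and 1 by rho.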
